A study of Homo sapiens with 18 samples.

Results

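Chromatin accessibility of Raji cells with low GFP was compared between 72 h and 48 h over all 71318 peaks of a deposited Omni-ATAC-seq count table. The comparison rests on 6 of the 18 samples of the series: 3 labelled GFP low at 72 h and 3 labelled GFP low at 48 h. Raji is an established B-cell line from a Burkitt lymphoma, and the labels give every sample the genotype Smarca4+/+. The series concerns loss of SMARCA4 (BRG1) protein through an auxin-inducible degron, a tag that sends a protein to the proteasome when auxin is added. The other samples were GFP low at 24 h and GFP high at 24, 48 and 72 h, with 3 samples each. What GFP reports is not in the labels, nor is which GFP level goes with loss of the protein, whether auxin was given, or from which event the hours are counted. Separate cultures or clones are not mentioned either.

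ATAC-seq uses a transposase that cuts and tags DNA where nucleosomes leave it exposed, so a peak's read count measures how open a region is. SMARCA4 is an ATPase of the BAF (SWI/SNF) complexes, which slide and evict nucleosomes. In B cells BAF works with lineage factors such as EBF1 at enhancers, which mostly lie away from gene starts, while promoters rich in CpG dinucleotides often depend less on it. Burkitt lymphoma resembles the germinal centre B cell, and above all its proliferating dark zone state.

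Called promoters are shown by 4 examples chosen after their values were seen, 2 with a raised and 2 with a lowered peak. Each sequence is the RefSeq window on GRCh38.p14 from 250 bases before to 50 bases after an annotated start, written 5′ to 3′ on the gene's strand. The first pair belongs to PMPCA, a subunit of the mitochondrial processing peptidase (chr9:136410408-136410707), and PRKCB, protein kinase C beta, which signals below the B-cell receptor (chr16:23835733-23836032). Capitals mark CpG dinucleotides, 51 in PMPCA and 38 in PRKCB, at a GC content of 78.7% and 77.7%, which is above the median of raised promoters (67.7%) and of all promoter peaks (66.0%).
PMPCA: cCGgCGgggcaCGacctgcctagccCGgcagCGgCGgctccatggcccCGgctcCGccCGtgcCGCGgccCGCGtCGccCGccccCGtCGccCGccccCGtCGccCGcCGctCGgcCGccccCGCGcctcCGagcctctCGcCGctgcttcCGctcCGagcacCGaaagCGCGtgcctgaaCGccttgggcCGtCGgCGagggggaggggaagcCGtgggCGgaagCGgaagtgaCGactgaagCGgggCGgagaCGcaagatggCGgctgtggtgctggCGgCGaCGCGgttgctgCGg
PRKCB: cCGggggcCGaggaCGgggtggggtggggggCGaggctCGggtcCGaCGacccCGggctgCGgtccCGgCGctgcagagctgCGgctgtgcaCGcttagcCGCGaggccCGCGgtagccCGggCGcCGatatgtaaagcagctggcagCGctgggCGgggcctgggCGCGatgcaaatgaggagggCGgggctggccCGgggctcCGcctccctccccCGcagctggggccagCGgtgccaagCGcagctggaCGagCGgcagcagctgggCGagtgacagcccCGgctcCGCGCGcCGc

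The second pair belongs to VCAM1, an adhesion molecule (chr1:100719492-100719791), and to 1 of the 2 annotated starts of IFIT3, an antiviral gene induced by interferon (chr10:89332279-89332578). Their GC content was 48.3% and 40.3%. Capitals mark a match to the NF-kB pattern (GGGA, any 4 bases, CC) in VCAM1, which begins 62 bases before the start. In IFIT3 they mark 2 matches to the interferon-stimulated response element (ISRE) pattern (GAAA, any 2 bases, GAAA) on the opposite strand, beginning 94 and 51 bases before the start. A match describes the letters and does not show that a factor was bound.
VCAM1: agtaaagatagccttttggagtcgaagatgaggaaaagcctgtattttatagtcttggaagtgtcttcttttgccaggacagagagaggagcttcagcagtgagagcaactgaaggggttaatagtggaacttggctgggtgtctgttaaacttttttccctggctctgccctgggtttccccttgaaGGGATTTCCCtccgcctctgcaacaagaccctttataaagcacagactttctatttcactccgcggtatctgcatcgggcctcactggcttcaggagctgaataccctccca
IFIT3: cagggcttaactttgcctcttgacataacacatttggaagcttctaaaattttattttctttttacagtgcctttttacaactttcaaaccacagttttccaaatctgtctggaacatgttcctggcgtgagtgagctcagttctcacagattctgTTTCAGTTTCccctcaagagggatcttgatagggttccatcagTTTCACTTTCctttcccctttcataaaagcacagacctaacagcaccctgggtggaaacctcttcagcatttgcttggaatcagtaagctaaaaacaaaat

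The 3 columns of each group differed from each other by a constant multiple of counting noise. Squared and divided by its counting variance, the difference averaged 1.80 to 1.81 among the 72 h columns and 1.78 to 1.80 among the 48 h columns, against 2.47 to 2.64 between the times. Each group was counted as 1 library, the sum of its columns, with 29790483 counts at 72 h and 28161886 at 48 h. With 1 library per time there is no replicate check, and no p-value is given for this comparison. Of the B-cell markers listed, 8 of 9 had a peak at a gene end, with summed levels of 580.1 CPM at 72 h and 545.5 CPM at 48 h, where CPM is the count of a peak scaled to library size with TMM factors. Gene-end peaks were also present for 5 of 7 T-cell, 1 of 5 myeloid and 1 of 5 epithelial and stromal markers. The T-cell sum was 96.5 CPM at 72 h and 93.1 CPM at 48 h, the myeloid sum 8.35 and 10.4 CPM, and the epithelial and stromal sum 10.1 and 7.61 CPM, again at 72 h and 48 h. These sums also depend on how many peaks a list has. Per peak the median at 72 h was 20.8 CPM for B-cell, 15.7 CPM for T-cell, 4.18 CPM for myeloid and 10.1 CPM for epithelial and stromal markers. Over all gene-end peaks it was 24.9 CPM. CD4 and LCK among T-cell markers, CD14, CSF1R, LYZ and MPO among myeloid markers, and CDH1, EPCAM, KRT8 and PDGFRB had no gene-end peak.

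Accessibility moved in both directions between the times, and more peaks fell than rose. A peak was tested where its mean count over both libraries was at least 100, which held for 59654 peaks, and it was called raised or lowered at a change of at least 1.5-fold. At 72 h 802 peaks were raised (1.34% of tested peaks) and 1379 were lowered (2.31%), 3.66% either way. In bulk libraries, fewer cells with an open region and less opening per cell cannot be told apart. The median log2 change of all tested peaks was 0.01. Raised peaks had a median level of 6.04 CPM at 72 h and 3.70 CPM at 48 h. Lowered peaks had a median of 3.91 CPM at 72 h and 6.54 CPM at 48 h. At 2-fold, 15 peaks were raised (0.0251%) and 91 lowered (0.153%). The 95% counting interval of the change excluded 0 in all 802 and all 1379. The fold threshold and the count minimum together ensure this, so it is no separate check. The columns at 72 h all stood above those at 48 h in 688 of the raised peaks, and this held in 11.9% of all tested peaks. They all stood below in 1227 of the lowered peaks, and in 10.8% of all tested peaks. These intervals and orders describe counting error in 2 libraries.

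**Figure D1:**
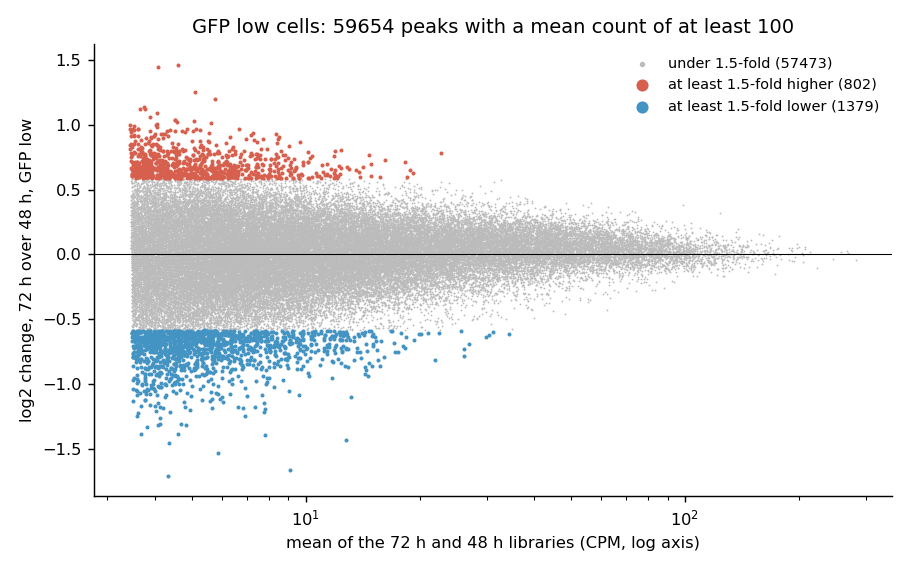
Log2 change at 72 h over 48 h in GFP low cells (vertical axis) against the mean level of both libraries in CPM (horizontal log axis), with 1 point per tested peak. The 802 raised and 1379 lowered peaks lie mostly among the weaker peaks, and the falls reach further from 0 than the rises.

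In the GFP high libraries, which were not used to call these peaks, the change was mostly of the same sign. Its size there is not compared, because the peaks were chosen for a large change in GFP low. Of the 802 raised peaks, 640 (79.8%) were above 0 in GFP high at 72 h over 48 h, with a median of 0.24, where 47.4% of all tested peaks were above 0. Of the 1379 lowered peaks, 1080 (78.3%) were below 0 in GFP high, with a median of -0.19, where 52.6% of all tested peaks were below 0. In GFP high itself, 797 of the same tested peaks were raised (1.34%) and 519 lowered (0.870%). Of those 797 peaks, 73.1% were above 0 in GFP low (median 0.21), where 51.7% of all tested peaks were above 0. Of the 519, 80.2% were below 0 in GFP low (median -0.29), where 48.3% of all tested peaks were below 0. Raised in both were 100 peaks, 12.5% of those raised in GFP low and 12.5% of those raised in GFP high. Lowered in both were 112 peaks, 8.12% of those lowered in GFP low and 21.6% of those lowered in GFP high. At 24, 48 and 72 h the raised peaks had medians of 4.57, 3.70 and 6.04 CPM in GFP low, and the lowered peaks 6.33, 6.54 and 3.91 CPM. The 48 h and 72 h levels chose these peaks, so only the 24 h level adds to the description: it lay nearer to the 48 h level in both sets.

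A test was possible only over both GFP levels together, with edgeR's quasi-likelihood model on the 6 summed libraries of the series and GFP level as a term. It called 4 peaks higher (0.00561% of 71318) and 3 lower (0.00421%) at 72 h over 48 h at a Benjamini-Hochberg adjusted p under 0.05, and 6013 had an unadjusted p under 0.05. DESeq2 called 0 (1991 at an unadjusted p under 0.05). The largest rise among the 7 that also reached the count minimum lay 2.1 kb outside FRG2C (edgeR adjusted p = 0.0304). A peak 5.4 kb outside DUSP5, a phosphatase that switches off ERK, changed by 0.76 in GFP low and 0.90 in GFP high (edgeR adjusted p = 0.0427). The largest fall of the 7 lay inside ANK2, an ankyrin gene, at -1.24 in GFP low and -1.10 in GFP high (edgeR adjusted p = 0.0409), followed by a peak inside NTM, a neuronal adhesion gene, at -1.18 and -0.89 (edgeR adjusted p = 0.0304). The others were a peak inside CHLSN at 0.88 in GFP low and 1.08 in GFP high (edgeR adjusted p = 0.0427), one inside the mitochondrial ATPase gene ATAD3A, below the count minimum, at 1.47 and 2.28 (edgeR adjusted p = 0.0304), and one on chromosome 8 with no gene within 50 kb at -1.17 and -0.76 (edgeR adjusted p = 0.0427). With the same count minimum as a filter, 0 peaks were called (4864 at an unadjusted p under 0.05), and without the 24 h libraries 458 were higher and 679 lower. The calls thus rest on which libraries and peaks enter the fit.

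Of the 10 largest rises among called peaks without overlap of columns, 9 lay away from gene ends. The FRG2C peak (chr3:75668998-75669498, positions of peaks on hg38), at a member of a multicopy gene family whose copies may share reads, had 7.77, 4.86 and 7.61 CPM in the columns at 72 h and 2.04, 2.67 and 2.52 CPM at 48 h. Its log2 change was 1.46 (95% counting interval 0.93 to 1.99), and GFP high gave 1.78. A peak inside LMTK3, a kinase gene, had 8.97, 5.5 and 7.15 CPM at 72 h and 2.94, 3.45 and 2.62 CPM at 48 h, a change of 1.25 (0.76 to 1.74). The columns of the 2 times did not overlap in either peak, as the choice of these peaks required. Changes of 1.13 inside ARID4B, a subunit of a SIN3 histone deacetylase complex, and 1.12 inside the carboxypeptidase M gene CPM followed. Inside AANAT, an enzyme of melatonin synthesis, the change was 1.12, and inside GABRB2, a GABA receptor subunit, it was 1.09. The remaining ones among the 10 largest were 2 peaks with no protein-coding gene within 50 kb, at chr1:143264379-143264879 (1.44) and chr10:133689152-133689652 (1.20), and the peaks of GNA13 and MAP1LC3B described below. All 10 changes were above 0 in GFP high, between 0.02 (GNA13) and 1.78 (FRG2C).

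Of the 10 largest falls, chosen by the same rule, all lay away from gene ends, and 5 had no protein-coding gene within 50 kb. The lowest was at chr9:82184511-82185011, with 1.86, 1.94 and 2.17 CPM at 72 h and 7.13, 7.24 and 5.82 CPM at 48 h, a log2 change of -1.70 (-2.27 to -1.14). Inside KCNH1, a voltage-gated potassium channel gene, a peak (chr1:210684890-210685390) had 3.72, 6.04 and 3.44 CPM at 72 h and 13.9, 13.8 and 13.9 CPM at 48 h, a change of -1.66 (-2.04 to -1.27). Both fell without overlap of columns, as that rule required, and in GFP high they changed by -0.68 and -0.57. TMTC1, an enzyme gene of protein O-mannosylation, held a peak at -1.53, and TRPM3, a cation channel gene, one at -1.38. Peaks lay 14.8 kb outside SASH1, an adaptor gene, and 18.2 kb outside CXCL13, the chemokine that draws B cells into follicles, both at -1.39. The CXCL13 peak had 3.06, 2.05 and 2.44 CPM at 72 h and 7.01, 6.91 and 6.21 CPM at 48 h, and in GFP high it changed by -0.73. The TRPM3 peak was the one of the 10 above 0 in GFP high, at 0.10.

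Few strong peaks changed, and these were chosen after their values were seen. With a count minimum of 500, the largest rise (chr6:44000282-44000782, no gene within 50 kb) had 26.9, 26.5 and 32.3 CPM at 72 h and 18.9, 16.2 and 15.4 CPM at 48 h, a log2 change of 0.78 (0.56 to 1.0). Rises of 0.65 inside FADS2, a fatty acid desaturase gene, 0.63 inside the carboxypeptidase M gene and 0.60 inside SOX5 were also among them. The largest fall (chr9:82127925-82128425), on the same chromosome as the lowest peak above, had 15.5, 14.8 and 17 CPM at 72 h and 30.1, 30.5 and 23.9 CPM at 48 h, a change of -0.81 (-1.04 to -0.59). Falls of -0.78 on chromosome 11 with no gene within 50 kb, -0.75 near WDR7 and -0.72 inside PTPN3 followed.

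**Figure D2:**
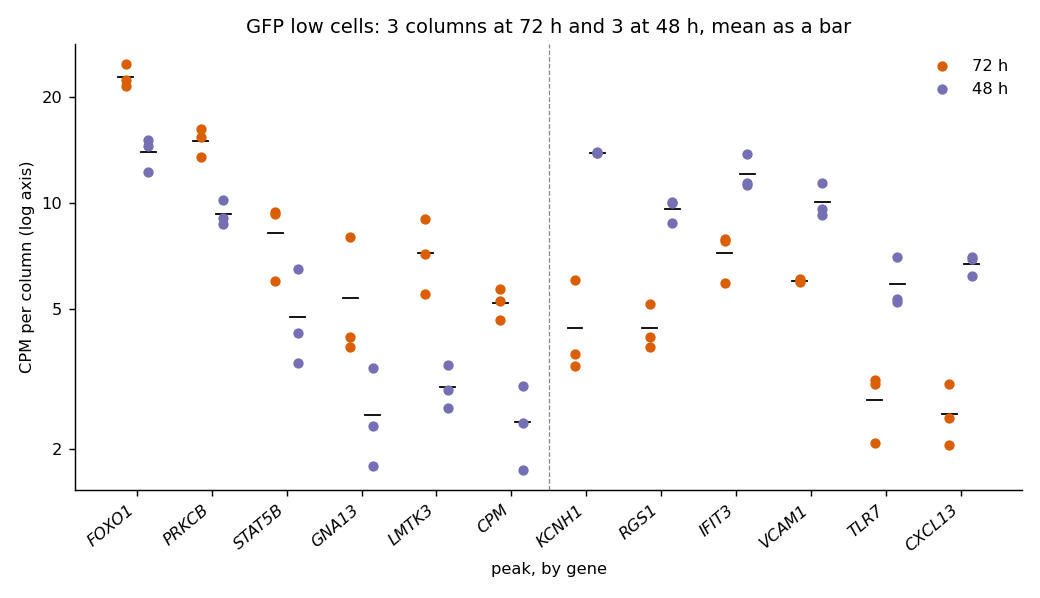
Level in CPM (log axis) of 12 peaks in the 3 GFP low columns at 72 h (left of each pair) and the 3 at 48 h (right), with the mean of the columns as a bar; 6 raised peaks stand left of the dashed line and 6 lowered peaks right of it. Columns of the times do not overlap in these peaks except STAT5B, where the lowest column at 72 h, 5.98 CPM, is below the highest at 48 h, 6.46 CPM. For peaks named as largest rises or falls, that was a condition of the choice.

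At gene ends, defined as the 1 kb around either end of a protein-coding gene, rises outnumbered falls. Of 13370 such peaks 92 were raised (0.688%, against 1.34% of all tested peaks) and 29 lowered (0.217%, against 2.31%). Calls of both directions were thus rarer there than over all tested peaks, but gene-end peaks were also stronger. In the weakest of 5 classes of abundance, 7.08% of gene-end peaks were raised, against 3.81% in gene bodies and 2.80% between genes. Lowered in that class were 1.67%, 4.36% and 6.55%. In the fourth class 0.185% were raised at gene ends, against 0.327% and 0.317%, and in the strongest 0%, 0% and 0.0579%. The largest rise lay 0.4 kb outside MAP1LC3B, which codes for the autophagosome protein LC3B, with 8.65, 5.72 and 4.35 CPM at 72 h and 3.05, 3.45 and 2.42 CPM at 48 h. Its log2 change was 1.03 (0.53 to 1.54), and GFP high gave 1.20. The gene ends of TEN1 and CDK3, a telomere protein and a cyclin-dependent kinase that share a peak, rose by 0.95. CHMP6 of the membrane-cutting ESCRT machinery rose by 0.93, the RNA helicase gene DHX33 by 0.90, and the cartilage gene CILP by 0.96, where GFP high gave -0.61. The largest falls were at OR6K3, an olfactory receptor gene (-1.09), and TLR7, the endosomal sensor of single-stranded RNA (-1.08). TLR7 had 3.06, 3.13 and 2.08 CPM at 72 h and 7.01, 5.24 and 5.33 CPM at 48 h, without overlap. Columns without overlap were required of the gene-end peaks named here. PDE4B, which breaks down cyclic AMP, fell to 6.24, 1.73 and 4.62 CPM at 72 h, against 8.37, 9.02 and 7.66 CPM at 48 h (-0.97). ADGRB3 (-0.86), ARHGAP32 (-0.84) and MC3R (-0.81) completed the 6 largest.

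Promoters that fell were mostly poorer in GC and CpG than promoter peaks in general, while those that rose were close to them. RefSeq windows overlapped 7322 tested peaks by at least 150 bases. Among these promoter peaks 37 were raised and 14 lowered. In each of 5 classes of GC content 0.268 to 0.804% were raised, against 1.34% of all tested peaks. At most 0.868% of a class were lowered, against 2.31%. Promoter peaks were also stronger, with class medians of 26.5 to 40.4 CPM at 72 h against 8.86 CPM over all tested peaks. The raised ones had a median GC content of 67.7% and 25 CpG dinucleotides per window, the lowered ones 47.8% and 3, and all 7322 had 66.0% and 27. Raised windows spanned 41 to 83.3% GC and lowered ones 35 to 73.3%, so the groups overlapped. In 5 classes of GC content from low to high, the median log2 change of all promoter peaks in GFP low was 0.03, 0.05, 0.06, 0.08 and 0.13. In GFP high the same classes had medians of -0.04, -0.02, -0.03, -0.02 and -0.01. The lowest class came to -0.001 with loess scaling, and the order of the classes was the same under each of the 3 other scalings. The part of GC content in the change was not tested.

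The promoters printed above show the range. The PMPCA peak had 11.8, 10.7 and 14.6 CPM at 72 h and 7.58, 6.68 and 6.30 CPM at 48 h, a log2 change of 0.87 (0.53 to 1.20), with -0.00 in GFP high. PRKCB had 15.3, 13.5 and 16.2 CPM at 72 h and 9.05, 8.69 and 10.2 CPM at 48 h, a change of 0.68 (0.39 to 0.98). VCAM1 had 6.02, 5.93 and 6.07 CPM at 72 h and 9.61, 11.4 and 9.21 CPM at 48 h, a change of -0.73 (-1.09 to -0.37). IFIT3 had 5.91, 7.88 and 7.79 CPM at 72 h and 11.2, 13.7 and 11.3 CPM at 48 h, also at -0.73 (-1.06 to -0.40). In all 4 the columns of the times did not overlap. Other raised promoters belonged to the semaphorin receptor gene PLXNA3 (0.79), to an internal start of STAT5B, a transcription factor of cytokine signalling (0.76), and to BCL7C, a BAF subunit (0.67). The columns of the times overlapped in STAT5B and BCL7C. Lowered ones included an internal start of the growth factor gene IGF1 (-1.05), the zinc finger gene ZBED2 (-0.81) and NBPF12 (-0.75), a member of a multicopy family.

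Motifs were searched as exact letters on both strands. The SP/KLF box GGGCGGGG was in 18 of the 37 raised and 0 of the 14 lowered promoters, against 40.9% of all 7322 and 22.8% of all 35116 RefSeq windows. The ISRE pattern was in 0 of 37 raised and 3 of 14 lowered promoters (NBPF12, VCAM1 and IFIT3), against 2.84% of the 7322 and 3.57% of all windows. The NF-kB pattern was in 12 of 37 and 4 of 14, against 30.3% of the 7322 and 25.6% of all windows. The AP-1 site TGANTCA was in 2 of 37 and 2 of 14, against 3.78% and 7.71%, and the E-box CACGTG in 4 of 37 and 1 of 14, against 10.4% and 7.26%. With 14 lowered promoters these counts are small and have no test.

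Position relative to genes separated the directions over the whole peak set. The median log2 change was 0.06 at gene ends, 0.005 in gene bodies and -0.04 between genes, and the gene-body median turned below 0 under each other scaling (-0.01, -0.007 and -0.004). Gene bodies had 1.63% of peaks raised and 2.34% lowered, and intergenic peaks 1.42% raised and 3.59% lowered. Gene ends made up 22.4% of tested peaks, 11.5% of raised and 2.10% of lowered peaks. Gene-end peaks were stronger, at a median of 25.7 CPM at 72 h against 7.57 CPM in gene bodies and 6.93 CPM between genes. Within each of 5 classes of abundance, though, gene ends had the highest median and intergenic peaks the lowest. In the strongest class gene ends, gene bodies and intergenic peaks all had medians above 0, at 0.047, 0.029 and 0.025. Gene-end peaks took 45.9, 44.6 and 45.6% of all counts at 24, 48 and 72 h in GFP low, and 39.6, 41.1 and 40.9% in GFP high.

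The median change went down with distance from genes, and less so among the strongest peaks. From 0 to 1 kb, 1 to 5 kb, 5 to 20 kb and 20 to 50 kb from the nearest gene end, the median log2 change was 0.06, 0.05, 0.03 and -0.02. From 50 to 100 kb, 100 to 250 kb and over 250 kb it was -0.05, -0.10 and -0.12. Lowered peaks made up 0.217% of the nearest and 5.30% of the farthest class, and raised peaks 0.688% and 0.540%. In GFP high the same classes had medians of -0.03, 0.01, 0.01, -0.003, -0.02, -0.03 and -0.04. With loess scaling the 1 to 5 kb class (0.036) stood above the nearest one (0.029), and the order was otherwise kept. In the strongest class of abundance the GFP low medians of the distance classes from 20 kb on were 0.02, 0.02, -0.005 and -0.06. Gene density went with the change also without gene ends. Away from gene ends the median was -0.12 in 1 Mb windows with no protein-coding gene, -0.08 with 1 to 5 genes, -0.01 with 6 to 10, 0.07 with 11 to 20 and 0.11 with over 20. In GFP high these medians were -0.03, -0.03, -0.004, 0.02 and 0.03. In windows with over 20 genes 4.09% of these peaks were raised and 0.728% lowered, and in windows with no gene 0.401% were raised and 4.98% lowered. At gene ends themselves the median was 0.01 with 1 to 5 genes, 0.04, 0.09 and 0.10 with over 20 in GFP low, where GFP high had -0.01, -0.01, -0.02 and -0.06, so the 2 GFP levels moved apart there.

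**Figure D3:**
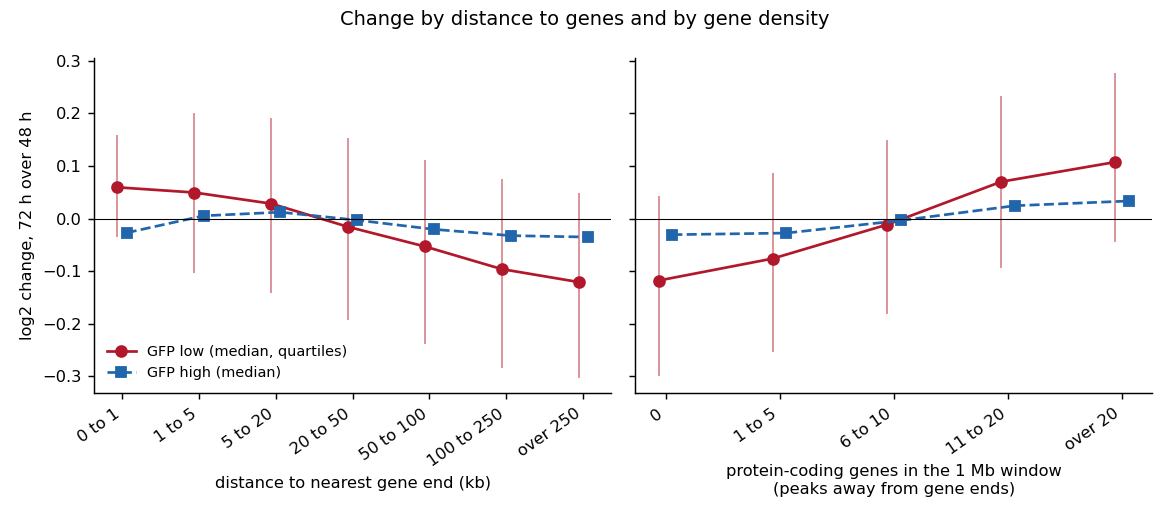
Median log2 change at 72 h over 48 h by distance to the nearest gene end in kb (left panel) and by protein-coding genes in the 1 Mb window, for peaks away from gene ends (right panel); circles are GFP low with quartiles as bars, squares are GFP high. In GFP low the median goes down from 0.06 to -0.12 with distance and up from -0.12 to 0.11 with gene density, while GFP high stays between -0.04 and 0.03, and quartiles of all classes overlap.

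Chromosomes differed as well. In GFP low the median log2 change was highest on chromosome 22 (0.16) and chromosome 17 (0.14), and lowest on chromosome X (-0.04), 18 (-0.04) and 4 (-0.04). Over 23 chromosomes the medians in GFP high lay between -0.07 (chromosome 19) and 0.02 (chromosome 7). On chromosome 22 GFP high had -0.14 at gene ends and 0.07 elsewhere, where GFP low had 0.14 and 0.19. For chromosome 17 these medians were -0.08 and 0.04 in GFP high, and 0.13 and 0.14 in GFP low. On chromosome 22 5.17% of 580 tested peaks were raised and 0.172% lowered, and on chromosome 17 4.12% and 0.537% of 1675. Over all chromosomes 1.34% of tested peaks were raised and 2.31% lowered. The medians of chromosomes 22 and 17 were 0.14 to 0.15 and 0.12 to 0.13 under other scalings. Among 2073 windows of 1 Mb with at least 10 tested peaks, 81 had a median above 0.2 in GFP low and 6 in GFP high, 4 of them in both. Below -0.2 were 136 windows in GFP low and 18 in GFP high, 8 of them in both. The window from 23 Mb on chromosome 1, with 20 genes, held 57 tested peaks, 6 of them raised and 0 lowered, at a median of 0.30 (GFP high 0.05). The window from 35 Mb on chromosome 5, with 6 genes, held 15, of which 5 were lowered and 0 raised, at -0.36 (GFP high -0.09). Without chromosomes 17 and 22, peaks away from gene ends still had medians of -0.12 with no gene and 0.10 with over 20 genes per window.

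**Figure D4:**
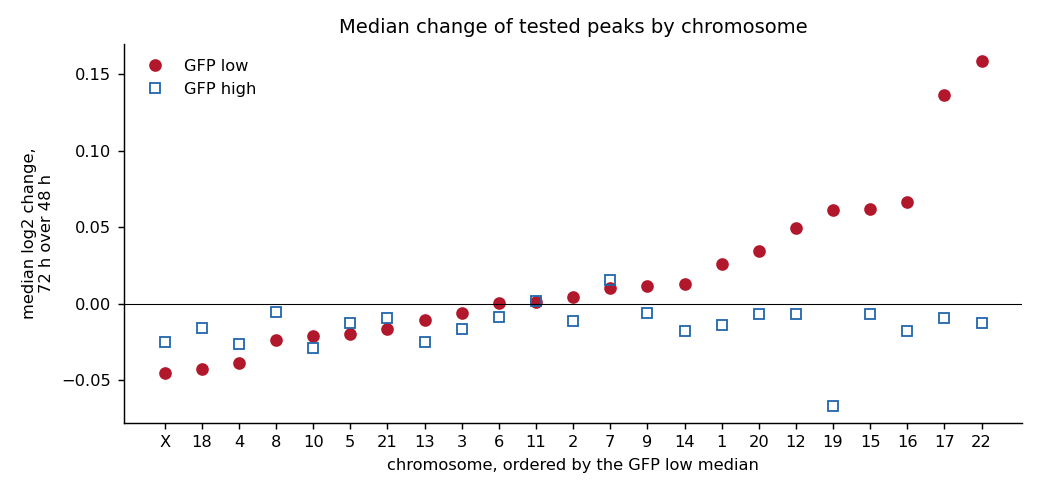
Median log2 change of tested peaks at 72 h over 48 h for each of 23 chromosomes, ordered by the GFP low value; filled circles are GFP low and open squares GFP high. Chromosomes 17 and 22 stand apart in GFP low, at 0.14 and 0.16, and in GFP high they lie near 0, at -0.01 for both. Those GFP high medians join gene ends below 0 (-0.08 and -0.14) with other peaks above 0 (0.04 and 0.07).

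Several genes held more than 1 called peak, where 1.34% of all tested peaks were raised and 2.31% lowered. The genes named here were chosen by their number of called peaks, which favours genes with many peaks. They spanned 28.85 kb (FBXL14) to 1033 kb (SOX5). The same values chose these genes, so their GFP low medians and signs are no separate result. Raised peaks were assigned to 674 genes and lowered peaks to 764; 56 genes had at least 2 raised, 104 had at least 2 lowered, and 24 had both kinds. SOX5, which codes for a SOX transcription factor, had the most raised peaks, 5 of 41 tested, with a median of 0.14 over its peaks. The gene MEGF6, of unclear function, had 4 of 15 raised and a median of 0.29, and of its 15 peaks 14 were above 0 in GFP low and 14 in GFP high. ADAP1, a GTPase-activating protein gene for ARF6, had 3 of 7 raised (median 0.52), the carboxypeptidase M gene 3 of 8 (0.40) and FBXL14, an F-box gene, 3 of 9 (0.38). In ADAP1 all 7 peaks were above 0 in GFP low and 5 in GFP high. On the lowered side PXDNL, a peroxidasin-like gene, had 6 of 15 (median -0.35) and SLC4A4, a sodium bicarbonate cotransporter gene, 5 of 9 (-0.65). PTPN3, a tyrosine phosphatase gene, had 5 of 15 lowered (-0.39), ITPR1, the calcium release channel of the endoplasmic reticulum, 5 of 19 (-0.22), and GRID1, a glutamate receptor gene, 5 of 28 (-0.20). All 9 SLC4A4 peaks and all 15 PTPN3 peaks were below 0 in GFP low, and 7 and 12 of them in GFP high. The largest fall in PXDNL, -1.10 on the log2 scale, had a library level of 21.9, 18 and 8.35 CPM at 24, 48 and 72 h.

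**Figure D5:**
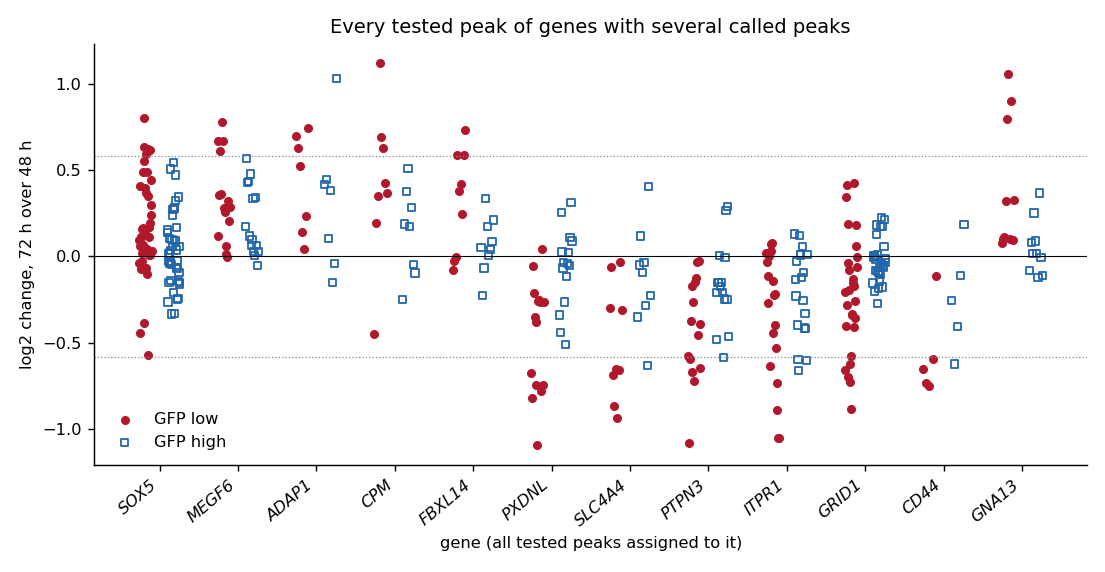
Log2 change at 72 h over 48 h of every tested peak assigned to 12 genes, in GFP low (filled circles) and GFP high (open squares); dotted lines mark 1.5-fold. CD44 and GNA13, described with the B-cell gene lists, were added to the 10 genes with the most called peaks.

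Genes of memory B cells held lowered peaks and no raised one. Of 145 tested peaks of this list, 11 were lowered (7.59%, against 2.31% of all tested peaks) and 0 raised (against 1.34%). All 11 were below 0 in GFP high, as were 78.3% of all 1379 lowered peaks. The list's median was 0.01, and its sign turned under another scaling. CD44, a hyaluronan receptor, held 4 of the 11 among its 5 tested peaks, all inside the gene. At chr11:35145175-35145675 it had 7.0, 6.47 and 8.06 CPM at 72 h and 11.4, 13.0 and 11.8 CPM at 48 h, a log2 change of -0.74 (-1.07 to -0.40), and GFP high gave -0.62. FCRL4, an Fc receptor-like gene (-0.82), the costimulatory gene CD80 (-0.63), ZEB2 (-0.62) and TNFRSF13B, which codes for TACI (-0.62), held 1 each. In all 11 the columns of the times did not overlap, which also held in 1227 of all 1379 lowered peaks. Of the 145 tested peaks, 27 had every 72 h column below those at 48 h, and 22 had every one above. Over all tested peaks these shares were 10.8% and 11.9%.

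Light zone and CD40 genes, active in germinal centre B cells that meet T cells, had 6 of 113 peaks lowered (5.31%) and 0 raised, where 2.31% of all tested peaks were lowered and 1.34% raised, at a median of -0.06 (GFP high -0.05). CD58, an adhesion ligand of T cells, held 2 of them, at -0.93 and -0.61. TNFAIP3, which restrains NF-kB, had a peak at -0.67, SLAMF1 a gene-end peak at -0.63 and the chemokine gene CCL17 one at -0.59. In CCL17 the columns of the times overlapped. The CD80 peak is also in the memory list. In GFP high 3 of the 6 were below 0, where 78.3% of all lowered peaks were. The CD58 peak at -0.61 changed by 0.21 there, SLAMF1 by 0.13 and CCL17 by 0.27. Plasma cell genes had 2 of 65 lowered (3.08%, near the 2.31% of all tested peaks), near TENT5C (-0.79) and the syndecan gene SDC1 (-0.63), and 0 raised, at a median of -0.05.

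Dark zone genes had 5 of 149 peaks raised (3.36%, against 1.34% of all tested peaks) and 3 lowered (2.01%, near the 2.31% of all), at a median of 0.08 (GFP high -0.02). The 5 belonged to 2 genes. GNA13, a G-protein subunit that confines B cells to germinal centres, held 3 inside the gene. At chr17:65039521-65040021 it had 8.54, 7.77 and 8.42 CPM at 72 h and 3.73, 4.90 and 4.46 CPM at 48 h, a log2 change of 0.90 (0.49 to 1.32). The other two stood at 1.06 and 0.80, and the GFP high changes of the 3 lay between 0.02 and 0.37. CCND3, the cyclin of dark zone proliferation, held 2, at 0.68 and 0.59, and the columns overlapped in the one at 0.59. All 3 lowered peaks lay inside FOXP1, a transcription factor gene, at -0.65, -0.61 and -0.60.

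B-cell identity regulators had 5 of 288 peaks raised (1.74%, near the 1.34% of all tested peaks) and 4 lowered (1.39%, against 2.31% of all), at a median of 0.03. The gene-end peak of FOXO1, a dark zone transcription factor, had 22.2, 24.7 and 21.4 CPM at 72 h and 15.04, 14.5 and 12.2 CPM at 48 h, a log2 change of 0.71 (0.47 to 0.95). In GFP high it changed by -0.08. The gene-end peak of IKZF3, which codes for Aiolos, rose by 0.65, and peaks near TCF3 and inside RUNX3 by 0.64 and 0.62. IKZF1, which codes for Ikaros, had 2 lowered peaks inside the gene (-0.94 and -0.67) and a raised one 40.4 kb outside it (0.61), where the columns overlapped. Peaks inside POU2F1 (-0.70) and BCL11A (-0.61) also fell. In GFP high 2 of the 5 rises and 1 of the 4 falls had the same sign.

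B-cell receptor signalling had 4 of 232 peaks raised (1.72%, near the 1.34% of all tested peaks) and 2 lowered (0.862%, against 2.31% of all), with a list median of 0.08 (GFP high 0.02). Besides the PRKCB promoter, peaks rose near PLCG2, the phospholipase below the receptor (0.62), and inside the adaptor gene PIK3AP1 (0.64) and VAV2 (0.64). In PIK3AP1 the columns of the times overlapped. A second PRKCB peak, 79.1 kb into the gene, fell by 0.95 on the log2 scale, so that gene held called peaks of both directions. Migration genes had 5 of 113 raised (4.42%, against 1.34% of all tested peaks) and 4 lowered (3.54%, against 2.31%). The raised ones were the 3 GNA13 peaks and 2 gene-end peaks of the integrin gene ITGAL (0.68 and 0.59). Among the lowered ones was a peak near RGS1. RGS1, a brake on chemokine receptor signalling, had 4.16, 3.88 and 5.16 CPM at 72 h and 9.95, 10.03 and 8.73 CPM at 48 h, a change of -1.09 (-1.49 to -0.68), at chr1:192552798-192553298. B-cell surface markers had 1 of 54 raised (1.85%), inside CD53 with overlapping columns, and 2 lowered (3.70%), near CR2 (-0.89) and TNFRSF13B.

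Other lists held few called peaks, and their counts stand against 1.34% raised and 2.31% lowered over all tested peaks. Ribosomal protein genes had 0 of 52 peaks called either way, and the highest list median, 0.16 (GFP high -0.03); 57.7% of these peaks lay at gene ends. MHC class II (21 peaks) and heat shock genes (36) also had 0 called. Among sterol synthesis genes 1 of 60 peaks was raised, 6.0 kb outside the desaturase gene SCD. It had 17.8, 20.1 and 17.8 CPM at 72 h and 11.3, 10.03 and 11.3 CPM at 48 h, a log2 change of 0.77 (0.49 to 1.04), with 0.42 in GFP high. Cell-cycle genes had 3 of 85 raised, 2 in CCND3 and 1 at a gene end of CDC20 (0.69), and 1 lowered, near CCNE1 (-0.72). Among p53 response and apoptosis genes 2 of 139 were raised, near TNFRSF10B (0.66) and inside BCL2L11 (0.59), and 2 lowered, among them one near BCL2 (-0.86). Interferon response genes had 1 of 59 raised, inside IFI6 (0.80), and 1 lowered, the IFIT3 promoter. The NF-kB list had 0 of 99 raised and 1 lowered (TNFAIP3), AP-1 and MAF genes 1 of 50 raised (BATF3, 0.64) and 0 lowered. The list of ATF4 and unfolded protein response genes had 0 of 89 raised and 1 lowered (DNAJB9, -0.66). Hypoxia and glycolysis genes had 1 of 82 raised (VEGFA, 0.68) and 1 lowered (EGLN1, -0.69). Housekeeping genes had 1 of 74 raised (YWHAZ, 0.70, with overlapping columns) and 0 lowered. Markers of other cell types had 0 of 47 raised and 2 lowered (4.26%) for T cells (CD2, -1.10, and GATA3, -0.92). Myeloid markers had 0 of 11 raised and 1 lowered (9.09%; S100A9, -0.67). Epithelial and stromal markers had 3 of 39 raised (7.69%), 2 near THY1 and 1 near DCN, and 0 lowered. These shares are as far from those of all tested peaks as the shares of the B-cell lists. The medians of the cell-cycle, hypoxia, interferon and memory B-cell lists turned sign under another scaling.

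At SMARCA4 itself the gene-end peak did not move in GFP low past 1.5-fold, with 17.2, 14.9 and 18 CPM at 72 h and 15.8, 16.3 and 17.7 CPM at 48 h, a log2 change of 0.01 (-0.24 to 0.25). In GFP high it changed by -0.56. The gene-end peaks of SMARCA2, the alternative BAF ATPase, changed by -0.05 (-0.16 to 0.05) and 0.03 (-0.17 to 0.23). Over all BAF subunits 1 of 153 peaks was raised (0.654%, against 1.34% of all tested peaks) and 0 were lowered (against 2.31%). The list median was 0.07 (GFP high -0.02). The raised peak, at BCL7C, had columns that overlapped between the times, and it changed by -0.22 in GFP high. A degron acts on the protein, so accessibility of the gene does not check the labels.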

How the data were processed

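Omni-ATAC-seq libraries of Raji cells were grouped by GFP level (low, high) and time (24, 48, 72 h), with 3 samples a group per the labels. The values are raw read counts in 71318 peaks of 501 bp, 18 columns, as the authors deposited them. The submitters' processing notes list FastQC, BWA, deepTools and R 4.2.1 beside hg38. What each tool did, which peak caller was used, and how duplicates and the transposase offset were handled is not given in the sources used here; duplicates, if kept, would raise counting noise. Day 1, 2 and 3 in the column names were taken as 24, 48 and 72 h, and the V number (0, 1 or 2) of a column was tied to no replicate; reading V as the time was tried as an alternative.

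Columns of a group were compared, found to differ by a constant multiple (1.80) of the counting variance, and summed. The 95% counting intervals use that multiple and cover counting error only. Log2 CPM with TMM scaling over the 6 libraries and a prior count of 2 gave the change at 72 h over 48 h. This comparison has no test, because each time is then 1 library. The change over both GFP levels was tested with edgeR 4.0.16 in R 4.3.3. That robust quasi-likelihood fit had 2 residual and 22.6 prior degrees of freedom (median) and a biological coefficient of variation of 9.48%, so its p-values rest largely on spread borrowed from other peaks. Alternatives, among them DESeq2 1.42.0 and loess in limma 3.58.1, are in the closing section. The fits were tested on simulated data.

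Each peak took the RefSeq protein-coding gene (19951 on GRCh38, 105 readthrough genes left out) that its centre lies in; failing that, the closest gene up to 50 kb away was taken, so that 59535 peaks have a gene. Assignment does not show that a peak acts on the gene. Parts of genes other than ends and bodies were not told apart, and sequences away from promoters were not analysed here. Members, gene lists, motifs and markers were chosen with earlier results of these data known. Named peaks are, among called peaks without overlap of columns, the 10 largest rises and falls (1 per gene) and the 6 largest at gene ends. Named without that condition were the largest of each direction per list, the 5 genes with the most called peaks each way, and the gene ends of SMARCA4 and SMARCA2. Other called peaks of the lists, the promoters, the strong peaks and the 7 peaks of the test were named after their values were seen. Some members of the lists are not reported here.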

Additional observations from a re-analysis of the deposited data

Results flagged for a closer look

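In 2 named peaks the direction differed between the GFP levels, with every column at 72 h on one side of those at 48 h in GFP low and on the opposite side in GFP high. The difference itself was not tested. At the gene end of ARHGAP32, a GTPase-activating protein gene, the log2 change at 72 h over 48 h was -0.84 in GFP low and 0.33 in GFP high. A peak 19.1 kb outside BATF3, a basic leucine zipper factor gene, changed by 0.64 in GFP low and -0.52 in GFP high. Each value compares 2 libraries.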

How the results depend on the processing

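Peaks raised and lowered at 1.5-fold numbered 700 to 857 and 1340 to 1516 under other scalings. Without a count minimum they were 1527 and 2530 (100 and 231 at 2-fold), and with a minimum of 300, where fewer peaks remain, 43 and 125 (0 and 2 at 2-fold). A prior count of 10 gave 8 and 57 at 2-fold. Leaving out 1 column at a time gave 922 to 1208 raised, 1558 to 1828 lowered, 27 to 63 raised 2-fold and 107 to 143 lowered 2-fold; the highest were without column V2 at 48 h (raised) and without V2 at 72 h (lowered). With V numbers read as time, 198 were raised and 133 lowered (0 and 1 at 2-fold). Taken as 6 separate columns, which treats counting noise as replication, edgeR called 339 tested peaks raised and 818 lowered. With a replicate block by V number it called 348 and 850, and DESeq2 68 and 253. Each count is of peaks past 1.5-fold by that fit's own change, at an adjusted p under 0.05. The V numbers did not pair the columns: deviations of the same number correlated by 0.0018, 0.0012 and 0.00002.

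With library totals the median log2 change was 0.0445 at gene ends, -0.0102 in gene bodies, -0.0566 between genes, -0.135 over 250 kb from a gene and 0.122 on chromosome 17. With DESeq2 size factors these were 0.0476, -0.00705, -0.0534, -0.132 and 0.125. With loess they were 0.029, -0.00448, -0.0459, -0.118 and 0.127. A count minimum of 300 gave 0.0532, 0.0162, -0.0144, -0.102 and 0.108, and 0.0971 on chromosome 22. No minimum gave 0.00265 in gene bodies, -0.0497 between genes, -0.122 over 250 kb and 0.145 on chromosome 17, and a prior count of 10 gave -0.116 over 250 kb. With chromosome medians subtracted, chosen after seeing the data, gene ends had 0.0448, gene bodies -0.00299 and peaks over 250 kb -0.114. With V numbers read as time every one of these medians came near 0: -0.00756, 0.00208, 0.00034, 0.00072, 0.00792 and, on chromosome 22, -0.0116. Without 1 column the ranges were 0.04996 to 0.0645 at gene ends, 0.00094 to 0.00695 in gene bodies, -0.0449 to -0.0391 between genes, -0.126 to -0.115 over 250 kb, 0.149 to 0.179 on chromosome 22 and 0.131 to 0.142 on chromosome 17.

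Over both GFP levels, edgeR called 458 peaks higher and 679 lower without the 24 h libraries, and 0 either way with a mean count of at least 100 or with DESeq2. With loess 81.0% of lowered peaks were below 0 in GFP high. The gene-body median thus turned below 0 under the 3 other scalings, and with V numbers read as time the gene-end and chromosome 22 medians turned below 0 and raised peaks outnumbered lowered ones. Of 79 called named peaks 0 changed sign in the 10 settings run for them (other scalings, another prior count and a column left out; V as time was not among them), and 14 fell below 1.5-fold in some setting, 2 of them under a scaling. Most called peaks are weak, so counting error is large beside their level. With 1 library a time, a difference between cultures cannot be told apart from one between times.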
